A study of Mus musculus with 8 samples.

Results

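The genes that carry a cell through its division cycle were examined in Ly6Chi monocytes from livers of mice given acetaminophen. These cells are the inflammatory subset of monocytes, recruited from blood to sites of injury. The genes are a list of 44 cell cycle and replication genes, found by symbol among the 15336 genes of the count table: markers of proliferating chromatin, cyclins and their kinases, inhibitors of those kinases, mitotic kinases and spindle proteins, replication genes, and the E2F and pocket proteins. All 44 are in the table. Of these, 39 had enough counts to be tested, and Ccnb1, Stmn1, Plk1, Birc5 and Bub1 did not.

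RNA with polyA tails was sequenced from 1 library per mouse, all 8 of them males of 8 weeks on the C57BL/6 background, taken 24 h after 300 mg/kg acetaminophen into the peritoneum, which followed an overnight fast. The 4 deficient mice (LysMDCommd10, replicates 5, 6, 12 and 13) carry floxed Commd10 alleles together with a Cre whose driver is Lyz2 (LysM), a gene active in myeloid cells including neutrophils and macrophages. The 4 control mice (Commd10fl/fl, replicates 2, 3, 10 and 11) carry the floxed alleles without the Cre. The design asks what the loss of COMMD10, a member of the COMMD protein family, changes in these monocytes. A group with the Cre and unfloxed Commd10 was not part of the comparison, so loss of COMMD10, presence of the Cre and the insertion into Lyz2 cannot be told apart.

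Total counts were 13327665 to 15759224 per animal. The targeted gene Commd10 had 15.8, 15.4, 17.0 and 8.74 CPM (counts scaled to a common library total) in the deficient animals, against 27.8, 24.5, 27.2 and 29.8 CPM in the controls, and the cre transgene had 37 to 122 counts in each deficient library and 0 in each control. The animal names are written in different ways in the labels, which gives a lower-numbered set (deficient 5 and 6, controls 2 and 3) and a higher-numbered set (deficient 12 and 13, controls 10 and 11). What parts the sets is not stated. The second principal component of the tested genes, with 14% of the variance, separated the genotypes. The leading one, with 60.5%, separated the sets, and within each set the deficient animals lay on the same side of the controls. The label set therefore stands in the model below, and without it edgeR called 0 of the 12178 tested genes, hence 0 of any list named below. The 15 markers of Ly6Chi monocytes were all in the table, with a summed level of 21843 to 30711 CPM in deficient animals and 25596 to 31928 CPM in controls, and none of them was at 0. Of these, edgeR called 5 higher and 4 lower, against 6.59% and 7.35% of all tested genes. Among them were Vcan (log2 fold change 1.07), Fn1 (0.97), Plac8 (-0.55), Ms4a4c (-0.61) and Lyz2 (-1.95), the gene that carries the Cre insertion in LysM-Cre mice. Calls of Fn1, Plac8 and Ms4a4c held with each animal left out, and that of Vcan was lost without control 11. The call of Lyz2 (adjusted p = 0.0491 by edgeR) held without deficient animal 13 and was lost without any other animal. The number called lower was 2 without each of deficient animals 6 and 12 and each of the 4 controls, and the number called higher was 3 without control 11.

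Cyclins bind cyclin-dependent kinases (CDKs) and switch them on in turn. D-type cyclins with Cdk4 and Cdk6 act in G1, cyclin E with Cdk2 at entry into S phase, and cyclins A and B with Cdk1 in G2 and mitosis. Phosphorylation of the retinoblastoma protein releases E2F factors, which switch on replication genes. Mitotic genes are induced later, through promoters that often hold a cell cycle genes homology region (CHR) and CCAAT boxes. Blood monocytes are mostly non-dividing cells that arise from cycling precursors in the bone marrow.

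In deficient monocytes the cyclin B2 gene Ccnb2, the proliferation marker Mki67 and the clamp-associated factor Pclaf were higher, and the cyclin D1 gene Ccnd1 and the transcription factor E2f1 were lower. With the label set in the model, edgeR's quasi-likelihood F-test called 3 of the 39 tested members higher and 2 lower at a Benjamini-Hochberg (BH) adjusted p under 0.05 over all 12178 genes tested. Among all tested genes 6.59% were called higher and 7.35% lower, so the members' counts are near the background. Of the 3 called higher, Ccnb2 and Pclaf passed the count filter almost only through the deficient libraries, as only 1 control reached 10 counts for each. The call of Pclaf was also lost with each of 6 animals left out in turn. The median log2 fold change, deficient over control, was 0.13 over the tested members, with 22 positive and 17 negative, and 0.00 over all tested genes. Without the label set in the model 0 members and 0 of 12178 genes were called (0% background), with a lowest adjusted p of 0.273 by edgeR. At an unadjusted p under 0.05 that model gave 1519 genes, among them 7 members higher and 3 lower. With single animals left out, the number called higher was 1 without control 11, and the number called lower was 1 without deficient animal 12, control 2 or control 11. In these bulk libraries, a different number of cycling cells and a different amount of RNA per cell cannot be told apart.

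**Figure D1:**
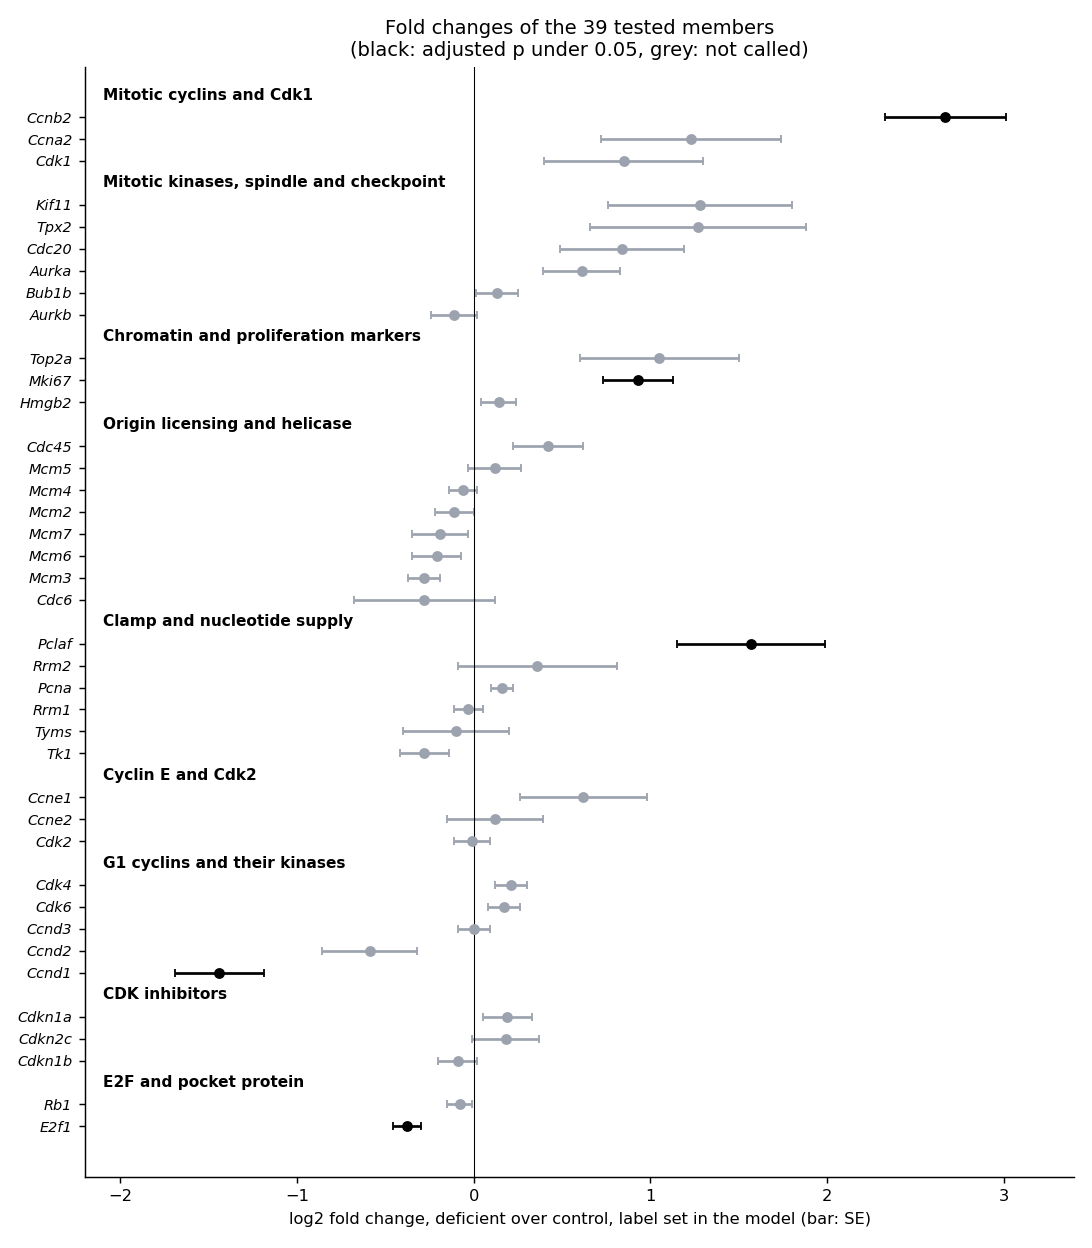
Log2 fold change, deficient over control, of the 39 tested members, ordered by role. Points are estimates of edgeR from the model that holds the label set, and bars are their standard errors. Black points are called at an adjusted p under 0.05. The called genes are Ccnb2, Pclaf and Mki67 on the higher side and Ccnd1 and E2f1 on the lower, and the helicase genes sit close to 0.

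Per length, the members spanned a wide range of levels. Over all 8 animals, Cdkn1a, which encodes the CDK inhibitor p21, had the highest mean level at 109 CPM per kb of exonic sequence. Cdk4 followed at 39.5, the sliding clamp gene Pcna at 34.6, the p27 gene Cdkn1b at 22.6, the retinoblastoma gene Rb1 at 20.1 and the cyclin D3 gene Ccnd3 at 19.2 CPM per kb. At the other end stood Kif11 at 0.177, Cdc6 at 0.176, Bub1 at 0.149 and Ccnb1 at 0.0635 CPM per kb. The most abundant members were thus CDK inhibitors and G1 and replication factors, and the scarcest were mainly mitotic genes.

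Ccnb2 (ENSMUSG00000032218, GRCm38 chr9:70407692-70421547, minus strand) encodes cyclin B2, a mitotic partner of Cdk1. It had 1.65, 3.38, 6.51 and 4.01 CPM in the deficient animals 5, 6, 12 and 13, against 0.610, 0.399, 0.601 and 0.718 CPM in the controls 2, 3, 10 and 11. Every deficient animal was above every control. The means were 3.89 ± 2.01 CPM in deficient animals and 0.582 ± 0.133 CPM in controls (SD, n = 4 each), and the log2 fold change was 2.67 (SE 0.34, adjusted p = 0.00278 by edgeR). Behind these levels stood 25, 47, 94 and 61 counts in deficient animals and 9, 6, 8 and 10 counts in controls, so the gene passed the count filter almost only through the deficient libraries. Within the sets the log2 fold change was 2.29 (lower-numbered) and 2.97 (higher-numbered), and the call held with each animal left out.

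Mki67 (ENSMUSG00000031004, chr7:135689784-135716361, minus strand) encodes Ki-67, a protein that coats mitotic chromosomes and marks cycling cells. It had 198, 214, 407 and 255 counts in deficient animals 5, 6, 12 and 13, against 150, 131, 137 and 119 counts in controls 2, 3, 10 and 11. The deficient libraries were at 13.1, 15.4, 28.2 and 16.8 CPM, and the lowest of the controls at 8.54 CPM. The groups did not overlap, and deficient animal 12 stood well above the rest. The means were 18.3 ± 6.73 CPM in deficient animals and 9.43 ± 0.93 CPM in controls (SD, n = 4 each), and the log2 fold change was 0.93 (SE 0.20, adjusted p = 0.0172 by edgeR). Within the sets this was 0.59 (lower-numbered) and 1.25 (higher-numbered). Without deficient animal 12 the log2 fold change was 0.69 and the call held (adjusted p = 0.0227 by edgeR). Without control 11 the call was lost, at 0.80 (adjusted p = 0.0563 by edgeR).

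Pclaf (ENSMUSG00000040204, chr9:65890237-65903266, plus strand) encodes a small protein that binds the sliding clamp PCNA. It had 1.12, 1.87, 2.91 and 0.920 CPM in deficient animals 5, 6, 12 and 13, against 0.678, 0.466, 0.451 and 0.646 CPM in controls 2, 3, 10 and 11. These rest on 17, 26, 42 and 14 counts in deficient animals and 10, 7, 6 and 9 counts in controls. The groups did not overlap, though the lowest deficient and the highest control animal lay close. Only control 2 reached 10 counts among the controls, so this gene too passed the count filter almost only through the deficient libraries. The log2 fold change was 1.57 (SE 0.42, adjusted p = 0.0371 by edgeR) and, by set, 1.37 (lower-numbered) and 1.77 (higher-numbered). The call was lost without deficient animal 6 (1.45, adjusted p = 0.0902 by edgeR), without deficient animal 12 (1.13, adjusted p = 0.0943 by edgeR) and without each control, at adjusted p values by edgeR of 0.0646 without control 2, 0.0883 without control 3, 0.0828 without control 10 and 0.0940 without control 11. Limma voom did not call it (1.41, adjusted p = 0.0607), and called 2 members higher in all.

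Promoter sequence was read for these genes, because CHR and CCAAT letters are known from promoters of genes induced in G2 and mitosis. The windows are the 250 bases before the RefSeq start of each gene on GRCm38.p6, written 5′ to 3′ on the gene's strand. They lie at chr9:70421555-70421804 for Ccnb2 (minus strand), chr7:135716380-135716629 for Mki67 (minus strand) and chr9:65890073-65890322 for Pclaf (plus strand). Capitals mark the CHR letters searched (TTTGAA or TTCGAA) and the CCAAT letters, on either strand, so that ATTGG is CCAAT read on the opposite strand.
Ccnb2: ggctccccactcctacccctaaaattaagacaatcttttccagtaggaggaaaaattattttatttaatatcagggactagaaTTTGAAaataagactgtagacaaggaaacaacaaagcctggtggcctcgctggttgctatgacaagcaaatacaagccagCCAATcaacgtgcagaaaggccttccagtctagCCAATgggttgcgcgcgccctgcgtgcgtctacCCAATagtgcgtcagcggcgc
Mki67: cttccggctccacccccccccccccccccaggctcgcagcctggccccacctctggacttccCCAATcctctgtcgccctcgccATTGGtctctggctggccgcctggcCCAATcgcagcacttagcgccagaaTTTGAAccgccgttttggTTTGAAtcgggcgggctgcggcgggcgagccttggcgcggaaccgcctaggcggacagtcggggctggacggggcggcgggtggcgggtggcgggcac
Pclaf: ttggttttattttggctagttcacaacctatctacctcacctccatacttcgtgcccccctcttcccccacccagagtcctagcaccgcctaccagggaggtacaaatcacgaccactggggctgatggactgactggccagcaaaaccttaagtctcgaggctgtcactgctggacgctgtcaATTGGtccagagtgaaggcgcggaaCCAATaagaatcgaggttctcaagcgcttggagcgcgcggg
The Ccnb2 window holds 1 CHR match, 162 to 167 bases before the start, and 3 CCAAT matches, the closest 17 to 21 bases before the start. The Mki67 window holds 2 CHR matches, at 111 to 116 and 93 to 98 bases before the start, and 3 CCAAT matches, of which 1 lies on the opposite strand. The Pclaf window holds 2 CCAAT matches, 1 of them on the opposite strand, and the CHR letters are not in it. None of these matches overlaps another.

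Of the 44 members, 35 had a RefSeq window. A member was counted if any of its windows held the letters, while the background counts single windows, so the shares are not like for like. CHR letters were found for 11 of these 35 members, against 17.0% of all 32536 windows of the same length. They were in 7 of the 12 mitotic members with a window, counting Mki67 and Top2a, and in 4 of the 23 other members. CCAAT letters were in 25 of the 35, made up of 11 of the 12 mitotic members and 14 of the 23 others, against 33.8% of all windows. The E2F letters searched (TTTGGCGC, TTTCGCGC, TTTCCCGC and TTTGCCGC, both strands) were in 6 of the 35, made up of 1 of the 12 mitotic and 5 of the 23 others, against 1.87% of all windows. These matches describe the letters of the windows, and binding was not measured.

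The remaining markers of proliferating chromatin did not pass the test. Top2a, the topoisomerase that untangles sister chromatids, had 2.24, 4.24, 12.0 and 5.19 CPM in deficient animals 5, 6, 12 and 13, against 3.93, 2.00, 1.95 and 2.58 CPM in controls 2, 3, 10 and 11. Deficient animal 12 was far above all others, and deficient animal 5 lay within the control range. The log2 fold change was 1.05 (SE 0.45, adjusted p = 0.144 by edgeR) and, by set, 0.12 (lower-numbered) and 1.92 (higher-numbered). Hmgb2, a DNA-bending chromatin protein, had 10.4 to 15.1 CPM in deficient animals and 8.86 to 14.1 CPM in controls (log2 fold change 0.14, SE 0.10, adjusted p = 0.369 by edgeR).

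**Figure D2:**
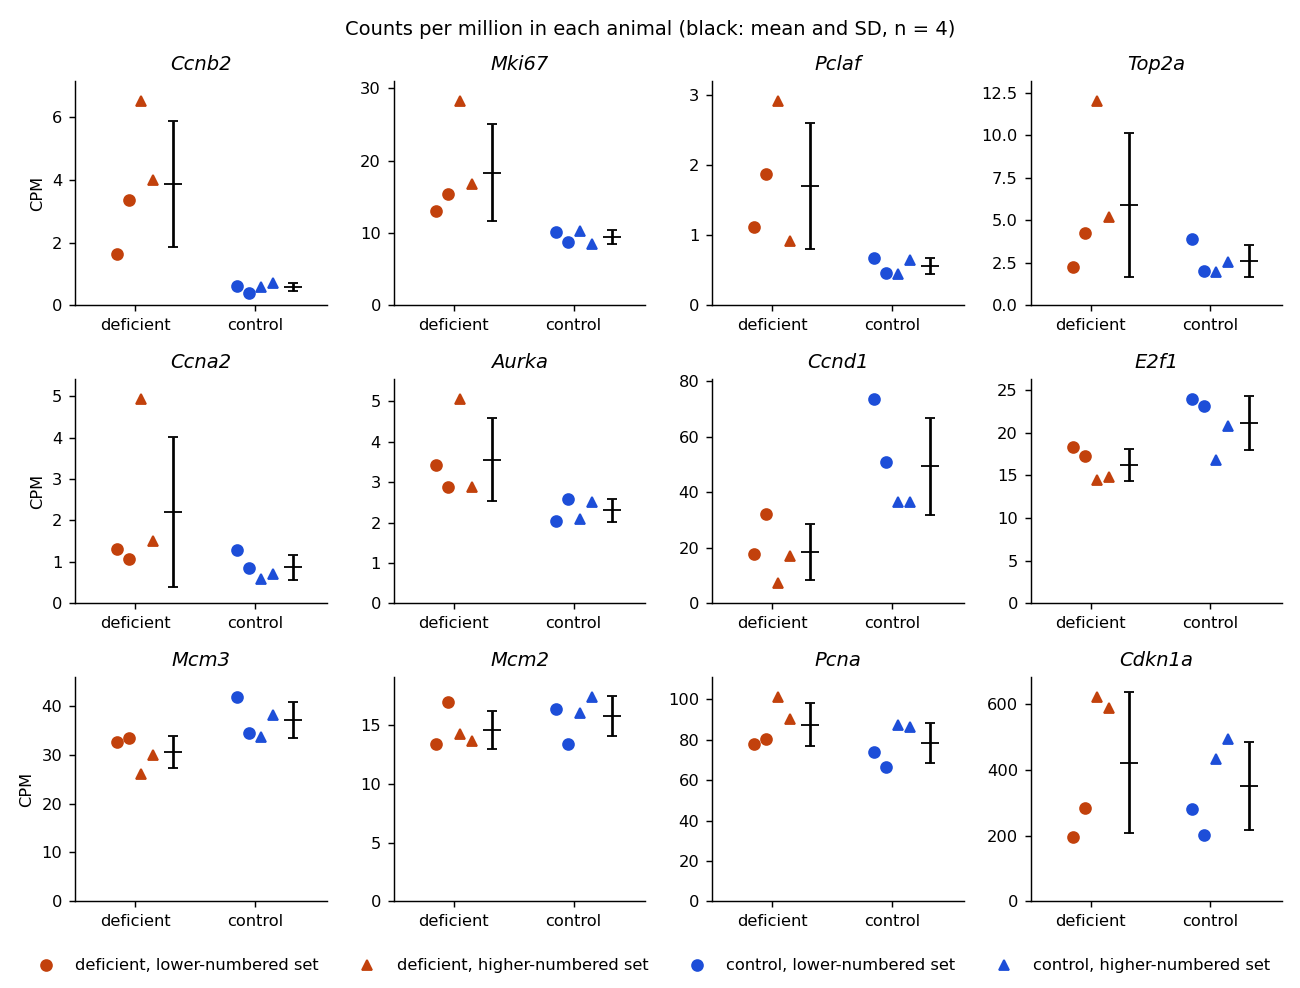
CPM of 12 members in each animal, deficient left of control in each panel. Deficient animals are orange and controls blue. Circles are animals of the lower-numbered set and triangles those of the higher-numbered set, with the group mean ± SD in black. Ccnb2, Mki67 and Pclaf do not overlap between the groups, Ccnd1 lies lower in every deficient animal, and Cdkn1a and Pcna part by label set.

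Of the other mitotic cyclins and Cdk1, Ccna2 and Cdk1 did not pass the test and Ccnb1 had too few counts for it. Ccnb1, the cyclin B1 gene, was scarce, with 1, 6, 16 and 6 counts in deficient animals 5, 6, 12 and 13, against 0, 1, 1 and 0 counts in controls 2, 3, 10 and 11. In CPM these are 0.0659, 0.431, 1.11 and 0.394 in deficient animals, against 0, 0.0665, 0.0751 and 0 in controls, where 3 counts, taken as the upper limit for a count of 0, are 0.197 to 0.225 CPM. Scaled by library size, the summed 29 and 2 counts give a ratio of 14.1, with an exact 95% binomial interval of 3.56 to 122 that covers counting error only. Ccna2, the cyclin A2 gene, had 1.32, 1.08, 4.92 and 1.51 CPM in deficient animals 5, 6, 12 and 13, against 1.29, 0.865, 0.601 and 0.718 CPM in controls (log2 fold change 1.23, SE 0.51, adjusted p = 0.140 by edgeR). Without animal 12 the deficient values of Ccna2 lie in or just above the control range. Cdk1, the kinase of mitotic entry, had 13, 7, 39 and 21 counts in deficient animals and 15, 8, 8 and 9 counts in controls (log2 fold change 0.85, SE 0.45, adjusted p = 0.230 by edgeR).

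Among the 10 mitotic kinases, spindle and checkpoint genes, 6 were tested and edgeR called 0, as did DESeq2 and limma voom, with log2 fold changes of -0.11 to 1.28. At an unadjusted p under 0.05 edgeR gave 3 higher and 0 lower. Aurka, the Aurora A kinase of the spindle poles, had 3.43, 2.87, 5.05 and 2.89 CPM in deficient animals 5, 6, 12 and 13, against 2.03, 2.59, 2.10 and 2.51 CPM in controls. All 4 deficient values of Aurka lay above the controls (log2 fold change 0.61, SE 0.22, adjusted p = 0.0937 by edgeR). Kif11, a kinesin motor of the spindle, had 1.38, 0.862, 4.29 and 1.05 CPM in deficient animals and 1.09, 0.466, 0.676 and 0.718 CPM in controls. Tpx2, an activator of Aurora A, had 0.264, 0.862, 5.40 and 2.04 CPM in deficient animals and 1.02, 0.399, 0.826 and 0.718 CPM in controls. Both were highest in deficient animal 12 and overlapped between the groups (log2 fold changes 1.28, SE 0.52, adjusted p = 0.133, and 1.27, SE 0.61, adjusted p = 0.187 by edgeR). Cdc20, an activator of the anaphase-promoting complex, had 21, 15, 56 and 26 counts in deficient animals and 14, 15, 20 and 12 counts in controls, again with the top value in animal 12 (log2 fold change 0.84, SE 0.35, adjusted p = 0.138 by edgeR). The Aurora B gene Aurkb and the checkpoint kinase gene Bub1b were better expressed, at 4.76 ± 0.687 and 7.46 ± 0.456 CPM in deficient animals and 5.14 ± 1.12 and 6.82 ± 0.883 CPM in controls (SD, n = 4 each), and had log2 fold changes of -0.11 and 0.13.

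The untested mitotic genes were scarce in controls. Birc5, which encodes survivin of the chromosomal passenger complex, had 0.659, 0.862, 2.98 and 1.58 CPM in deficient animals 5, 6, 12 and 13, against 0.475, 0.266, 0.225 and 0.215 CPM in controls, where it rested on 7, 4, 3 and 3 counts. Bub1, a kinetochore checkpoint kinase, had 0.593, 0.647, 2.22 and 1.18 CPM in deficient animals and 0.136, 0.200, 0.150 and 0.0718 CPM in controls, where it rested on 2, 3, 2 and 1 counts. In both genes all deficient animals lay above all controls. Plk1, the Polo-like kinase of mitotic entry, had 6, 10, 42 and 10 counts in deficient animals and 6, 3, 8 and 2 counts in controls, so that only animal 12 stood well clear. With no count filter, 15336 genes were tested by edgeR, and Bub1 (log2 fold change 2.88, SE 0.51, adjusted p = 0.00830), Birc5 (2.20, SE 0.50, adjusted p = 0.0221) and Ccnb1 (adjusted p = 0.0428) were called higher besides the 3 above, while Plk1 was not (1.66, SE 0.63, adjusted p = 0.122). That made 6 of 44 members higher and 2 lower, against 4.94% and 5.56% of all genes. Without deficient animal 12 as well, 3 members were called higher by edgeR: Bub1 was still called (2.50, adjusted p = 0.0316), and Birc5 (1.78, adjusted p = 0.0707) and Ccnb1 (adjusted p = 0.151) were not. Stmn1, which encodes the microtubule-destabilising protein stathmin, had 41 counts in all in deficient animals and 30 in controls and was not called by edgeR (log2 fold change 0.42, SE 0.40, adjusted p = 0.544).

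Over all rows of the table, regardless of the filter, 6 members were higher in every deficient animal than in every control (Mki67, Ccnb2, Pclaf, Birc5, Bub1 and Aurka) and 2 were lower (Ccnd1 and Mcm3), against 3.23% and 3.26% of all 15336 genes.

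The mitotic genes had a common high animal. The 16 mitotic members, which are the mitotic cyclins with Cdk1, the mitotic kinases, spindle and checkpoint genes, Mki67 and Top2a, summed to 40.9, 46.5, 94.4 and 52.6 CPM in deficient animals 5, 6, 12 and 13, against 37.0, 30.9, 31.2 and 30.4 CPM in controls 2, 3, 10 and 11. The sums averaged 58.6 ± 24.3 CPM in deficient animals and 32.4 ± 3.09 CPM in controls (SD, n = 4 each). Deficient animal 12 held the highest value for 13 of these 16 members, against 19.8% of all rows of the table. Taking each member's highest animal as 100%, the median member stood at 29.3%, 32.2%, 100% and 52.0% in deficient animals and at 25.7%, 17.1%, 18.4% and 19.1% in controls. The 13 members other than Mki67, Bub1b and Aurkb each had a control mean of at most 2.62 CPM. The median of their mean levels was 1.90 CPM in deficient animals and 0.699 CPM in controls, and animal 12 was highest for 12 of them. Bub1b and Aurkb had log2 fold changes of 0.13 and -0.11, so this contrast leaves out members without the difference.

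**Figure D3:**
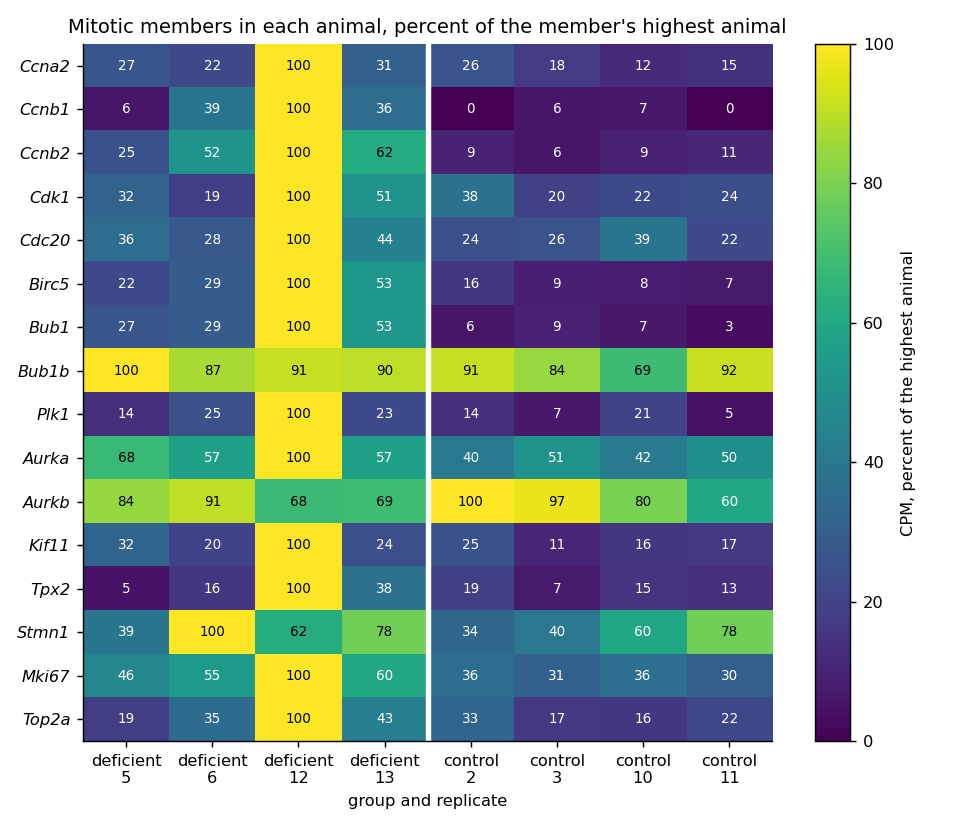
Level of each of the 16 mitotic members in each animal, as a percentage of the member's highest animal, with deficient animals left of controls. Brighter cells are higher. Deficient animal 12 is at 100% for 13 of the 16 members, and Bub1b and Aurkb vary less between animals than the other members do.

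Markers of other cells were read beside these values, and their part in the result was not tested. The 12 neutrophil markers in the table, of 14 listed, summed to 657 to 901 CPM in deficient animals and 419 to 618 CPM in controls, and the sum was highest in deficient animal 12. Ly6g and Stfa2l1 are not in the table. Of the 11 tested, edgeR called 5 higher and 0 lower (7 higher and 0 lower at an unadjusted p under 0.05), and DESeq2 and limma voom each called 6 higher and 0 lower. The call with the smallest p was S100a8, a calcium-binding protein abundant in neutrophils and also made by monocytes, at 35.1, 69.3, 129 and 135 CPM in deficient animals 5, 6, 12 and 13, against 3.12, 7.12, 19.8 and 14.9 CPM in controls. The 17 granulocyte and monocyte progenitor markers in the table, of 18 listed, summed to 716 to 791 CPM in deficient animals and 767 to 816 CPM in controls. Of 12 tested, edgeR called 3 higher and 4 lower (2 and 2 without deficient animal 12). Higher were Prtn3 (log2 fold change 1.27), Cebpe (1.38) and Cd63 (0.66), and lower were Cd34 (-1.55), Flt3 (-1.19), Igfbp4 (-1.21) and Irf8 (-0.24). Calls of Prtn3, Cebpe, Cd34 and Flt3 held with each animal left out, and those of the others did not. The granule gene Mpo of cycling progenitors had 4, 6, 5 and 2 counts in deficient animals and 2, 4, 1 and 3 counts in controls, near 0 in all libraries. Elane, the elastase gene of the same granules, had 9, 20, 10 and 22 counts in deficient animals and 3, 2, 5 and 1 counts in controls, without overlap. Other genes of that list did overlap. Ctsg had 8, 5, 6 and 4 counts in deficient animals and 6, 5, 2 and 2 in controls. Kit had 6, 4, 12 and 29 counts in deficient animals and 2, 9, 24 and 53 in controls. Ms4a3 had 1, 3, 19 and 15 counts in deficient animals and 0, 0, 11 and 2 in controls. The 13 neutrophil precursor markers in the table, of 17 listed, summed to 1169 to 2078 CPM in deficient animals, lowest in animal 12, and 1421 to 2159 CPM in controls. Camp, Ly6g, Olfm4 and Itgb2l of that list are not in the table. Cybb, an oxidase gene that monocytes also express, had the highest level of these in every animal. Of the 10 tested, edgeR called 6 higher and 1 lower, with a median log2 fold change of 0.86. The calls on the higher side were Lcn2 (2.15), Wfdc21 (2.55), Fcnb (1.36), Serpinb1a (0.93), Mmp8 (0.91) and Padi4 (0.31), and that on the lower side was Cybb (-0.57). Lcn2 stands in the neutrophil list as well. Scarce genes of the precursor list overlapped between the groups. Ltf had 19, 7, 4 and 1 counts in deficient animals 5, 6, 12 and 13, against 1, 4, 13 and 6 in controls. Ngp had 25, 11, 1 and 5 counts in deficient animals and 8, 0, 21 and 15 in controls. Retnlg had 2, 1, 19 and 9 counts in deficient animals and 0, 1, 6 and 7 in controls. The call of Cybb was lost without deficient animal 6, 12 or 13 or control 11, and 5 to 7 were called higher with each animal left out.

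The 18 markers of T and NK cells, which can divide in inflamed tissue, summed to 31.0 to 105 CPM in deficient animals, highest in animal 12, and 19.9 to 64.7 CPM in controls. Il7r made up 87.6 of the 105 CPM in animal 12, and the T cell receptor subunit gene Cd3e had 0.144 to 0.485 CPM in deficient animals and 0.451 to 0.861 CPM in controls. Of 13 tested, edgeR called Il7r higher (1.19, adjusted p = 0.00731) and Cd4 lower (-1.44, adjusted p = 0.0180), and the call of Cd4 was lost without deficient animal 12, control 3 or control 11. The 12 B and plasma cell markers summed to 62.1 to 103 CPM in deficient animals and 91.5 to 145 CPM in controls, and 1 of 9 tested was called higher and 3 lower by edgeR (5 lower without control 10). The one called higher was Jchain, the immunoglobulin joining chain gene of plasma cells, at 26.1, 13.1, 5.19 and 7.29 CPM in deficient animals 5, 6, 12 and 13, against 4.88, 0.599, 1.80 and 1.79 CPM in controls 2, 3, 10 and 11. Its groups did not overlap, its highest level was in deficient animal 5, and the call (log2 fold change 2.41, SE 0.48, adjusted p = 0.0135 by edgeR) held with each animal left out. The 19 dendritic cell markers summed to 440 to 587 CPM in deficient animals and 529 to 599 CPM in controls, and of 15 tested 6 were called lower and 0 higher by edgeR (1 higher by DESeq2, 0 by limma voom, and 1 higher and 8 lower at an unadjusted p under 0.05 by edgeR), with a median log2 fold change of -0.75. The number lower was 3 without deficient animal 12, control 2 or control 11. The 13 endothelial and stellate cell markers in the table, of 14 listed, summed to 40.5 to 213 CPM in deficient animals, highest in animal 12, and 48.4 to 163 CPM in controls, and Pecam1 made up 174 of the 213 CPM. Of 8 tested, edgeR called Clec4g, a sinusoidal endothelial lectin gene, lower (-2.08, adjusted p = 0.0252). The call was lost without deficient animal 6, 12 or 13 or control 3, and 3 were lower without control 10. The 8 erythroid and megakaryocyte markers in the table, of 12 listed, summed to 73.1, 37.5, 144 and 215 CPM in deficient animals 5, 6, 12 and 13. In controls 2, 3, 10 and 11 they summed to 79.2, 35.1, 50.2 and 72.2 CPM, and the groups overlapped. Of 6 tested, edgeR, DESeq2 and limma voom each called 1 higher and 0 lower. By edgeR that was Ppbp (log2 fold change 2.96, adjusted p = 0.00173), and the call held with each animal left out.

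Among the G1 genes, cyclin D1 was lower in deficient animals. Ccnd1 (ENSMUSG00000070348, chr7:144929931-144939925, minus strand), the D-type cyclin most often linked to growth factor signals, had 17.9, 32.1, 7.48 and 17.0 CPM in deficient animals 5, 6, 12 and 13, against 73.5, 50.8, 36.6 and 36.5 CPM in controls 2, 3, 10 and 11. Every deficient animal was below every control. The means were 18.6 CPM in deficient animals and 49.3 CPM in controls (n = 4 each), and the log2 fold change was -1.44 (SE 0.25, adjusted p = 0.00818 by edgeR). Within the sets it was -1.32 (lower-numbered) and -1.57 (higher-numbered), and the call held with each animal left out, at -1.67 to -1.24. Animal 12, which was highest for most mitotic members, was the lowest for Ccnd1. Of markers of other liver cells, edgeR called 8 of 14 tested Kupffer cell markers and 8 of 19 tested hepatocyte markers lower, against 7.35% of all tested genes. Without deficient animal 12 these were 2 and 2, without deficient animal 6 they were 3 and 3, and without deficient animal 13 they were 4 and 3. Without control 11 they were 1 and 2, without control 2 the Kupffer count was 3, and without control 3 the hepatocyte count was 2. The 15 Kupffer cell markers in the table summed to 1736 ± 324 CPM in deficient animals and 2510 ± 536 CPM in controls, and the 20 hepatocyte markers to 159 ± 22.9 CPM in deficient animals and 327 ± 135 CPM in controls (SD, n = 4 each). Kupffer sums ran from 1339 to 2050 CPM in deficient animals and from 1983 to 3254 CPM in controls. Hepatocyte sums ran from 130 to 178 CPM in deficient animals and from 166 to 489 CPM in controls. Both thus overlapped between the groups. Control 2, highest for Ccnd1, had the highest Kupffer sum and the lowest hepatocyte sum among the controls. The part of these cells in the Ccnd1 difference was not tested.

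The other D-type cyclins and their kinases were not called by genotype. Ccnd2 had 11.6, 18.6, 9.83 and 14.5 CPM in deficient animals 5, 6, 12 and 13, against 39.8, 25.0, 10.6 and 13.6 CPM in controls (log2 fold change -0.59, SE 0.27, adjusted p = 0.177 by edgeR). In the lower-numbered animals the log2 fold change was -1.10, and in the others the groups overlapped. Ccnd3 had 169 ± 56.8 CPM in deficient animals and 169 ± 57.5 CPM in controls. Cdk4 averaged 138 ± 29.6 CPM in deficient animals and 119 ± 18.2 CPM in controls, and Cdk6 90.3 ± 26.4 CPM in deficient animals and 80.2 ± 23.2 CPM in controls (SD, n = 4 each). Their log2 fold changes were 0.21 and 0.17. The cyclin E genes Ccne1 and Ccne2 and their kinase Cdk2 had log2 fold changes of 0.62, 0.12 and -0.01, all with an adjusted p above the threshold, the lowest being 0.271 by edgeR. The cyclin E genes were scarce, with 0.831 to 1.65 CPM of Ccne1 in deficient animals and 0.475 to 1.20 CPM in controls, and 1.18 to 1.58 CPM of Ccne2 in deficient animals and 0.814 to 1.72 CPM in controls.

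E2f1 (ENSMUSG00000027490, chr2:154559407-154569892, minus strand), the activating E2F factor of the S-phase programme, had 18.3, 17.3, 14.5 and 14.8 CPM in deficient animals 5, 6, 12 and 13, against 23.9, 23.1, 16.8 and 20.8 CPM in controls 2, 3, 10 and 11. The groups overlapped as a whole and did not overlap within either set. The means were 16.2 ± 1.85 CPM in deficient animals and 21.2 ± 3.18 CPM in controls (SD, n = 4 each), and the log2 fold change of -0.38 (SE 0.08, adjusted p = 0.0193 by edgeR) was, by set, -0.40 (lower-numbered) and -0.36 (higher-numbered). The call was lost by edgeR without deficient animal 12 (adjusted p = 0.0578), without control 2 (adjusted p = 0.0560) and without control 11 (adjusted p = 0.0615). Rb1, the retinoblastoma protein gene that holds E2F in check, had 118 ± 6.52 CPM in deficient animals and 124 ± 9.12 CPM in controls (SD, n = 4 each; log2 fold change -0.08, SE 0.07, adjusted p = 0.438 by edgeR).

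The 3 CDK inhibitors were not called by edgeR, DESeq2 or limma voom, and 0 of them had an unadjusted p under 0.05. Cdkn1a had 196, 285, 620 and 587 CPM in deficient animals 5, 6, 12 and 13, against 281, 202, 432 and 492 CPM in controls 2, 3, 10 and 11. Both groups were high in the higher-numbered set, and the genotype difference was 0.19 on the log2 scale (SE 0.14, adjusted p = 0.400 by edgeR). Cdkn1b was 99.5 ± 9.07 CPM in deficient animals and 106 ± 16.4 CPM in controls, and Cdkn2c, which encodes p18, an inhibitor of Cdk4 and Cdk6, was 3.21 ± 0.553 CPM in deficient animals and 2.85 ± 0.585 CPM in controls (SD, n = 4 each).

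Of the replication genes, Pclaf alone was called. Of the 8 origin licensing and helicase genes 0 were called by edgeR, DESeq2 or limma voom, and 1 was lower at an unadjusted p under 0.05 by each. Their log2 fold changes ran from -0.28 to 0.42 with a median of -0.15. Mcm2, a subunit of the replicative helicase, had 13.4, 17.0, 14.3 and 13.7 CPM in deficient animals 5, 6, 12 and 13, against 16.4, 13.4, 16.1 and 17.4 CPM in controls, and the groups overlapped (log2 fold change -0.11, SE 0.11, adjusted p = 0.533 by edgeR). Mcm3, another subunit, had 32.5, 33.4, 26.0 and 30.0 CPM in deficient animals and 41.7, 34.5, 33.7 and 38.1 CPM in controls. Its groups did not overlap, and it came just short of the threshold (log2 fold change -0.28, SE 0.09, adjusted p = 0.0590 by edgeR). It was called without control 3 (-0.35, adjusted p = 0.0337 by edgeR). The other helicase subunit genes Mcm4, Mcm5, Mcm6 and Mcm7 had log2 fold changes of -0.06, 0.12, -0.21 and -0.19, and the levels of each overlapped between the groups. Cdc6, which loads the helicase on origins, and Cdc45, which activates it, averaged 0.828 ± 0.414 and 1.80 ± 0.349 CPM in deficient animals and 1.01 ± 0.349 and 1.35 ± 0.17 CPM in controls (SD, n = 4 each; log2 fold changes -0.28 and 0.42). Pcna had 78.0, 80.5, 101 and 90.5 CPM in deficient animals and 73.9, 66.7, 87.1 and 86.1 CPM in controls (log2 fold change 0.16, SE 0.06, adjusted p = 0.0977 by edgeR). Within each set both deficient animals of Pcna were above both controls. The ribonucleotide reductase genes Rrm1 and Rrm2, the thymidylate synthase gene Tyms and the thymidine kinase gene Tk1 were not called, with log2 fold changes of -0.03, 0.36, -0.10 and -0.28. Rrm2, the cell-cycle-regulated subunit, had 0.725, 1.22, 2.28 and 1.38 CPM in deficient animals 5, 6, 12 and 13, against 1.90, 0.732, 1.05 and 0.574 CPM in controls, with the highest value again in animal 12.

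The genotype difference was examined within each label set. Both sets gave a higher level in deficient animals for 16 of the 39 tested members and a lower level for 12, and 11 went opposite ways. In the lower-numbered set 0 members were called by edgeR (3 higher and 3 lower at an unadjusted p under 0.05), against 0.378% of genes called higher and 0.279% lower, and in the higher-numbered set 4 members were called higher (Mki67, Top2a, Ccna2 and Ccnb2) and 1 lower (Ccnd1), against 3.55% and 4.92% of genes. When only the animals of the higher-numbered set were fitted, edgeR called 4 members higher, among them Mki67 (adjusted p = 0.0458) and Ccnb2 (adjusted p = 0.0101). It called 1 lower, Ccnd1 (adjusted p = 0.0407), and did not call Top2a (adjusted p = 0.0575) or Ccna2 (adjusted p = 0.0956). The count filter was applied anew to these animals, so the genes tested can differ from the 39 members above. The share of all genes called in that separate fit is not given here, so its counts have no background beside them. A call in 1 set alone does not show that the sets differ. The interaction of genotype and set, the test of that difference, called 0 members by edgeR and by DESeq2, with a lowest adjusted p among members of 0.693, and 5 of all genes (0.0411%). At an unadjusted p under 0.05 the interaction gave 6 members by edgeR, 5 with a more positive difference in the higher-numbered set and 1 with a more negative one.

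**Figure D4:**
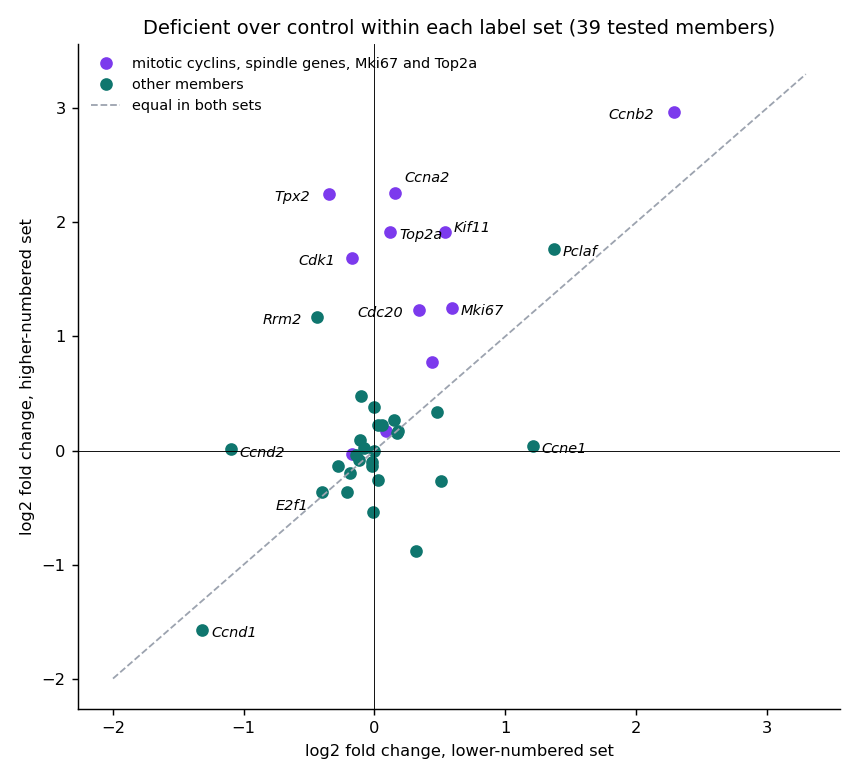
Log2 fold change, deficient over control, of the 39 tested members in the lower-numbered set (horizontal) and in the higher-numbered set (vertical). Purple points are mitotic members, green points the others, and the dashed line marks equal values. Ccnb2 and Pclaf lie high in both sets, Ccnd1 low in both, and Tpx2, Ccna2 and Top2a lie high in the higher-numbered set and near or below 0 in the lower-numbered set.

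The label sets were compared with each other. Comparing the higher-numbered with the lower-numbered set across both genotypes, edgeR called 4 of the 39 tested members higher and 6 lower, against 18.6% and 18.3% of all genes, so the members' counts are not above the background. All 5 tested G1 cyclins and their kinases were among them, and 0 of the 8 origin licensing and helicase genes (0 also by DESeq2, with 1 lower at an unadjusted p under 0.05 by each). Ccnd3 averaged 122 CPM in the higher-numbered and 216 CPM in the lower-numbered animals (log2 fold change -0.82, SE 0.09, adjusted p = 0.000265 by edgeR). Cdk6 averaged 106 CPM in the higher-numbered and 64.9 CPM in the lower-numbered animals (0.71, SE 0.09, adjusted p = 0.000450 by edgeR). Cdkn1a averaged 533 CPM in the higher-numbered and 241 CPM in the lower-numbered animals (1.13, SE 0.15, adjusted p = 0.000575 by edgeR).

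Cdk4 (log2 fold change 0.40) and Pcna (0.29) were also higher in the higher-numbered set, and Ccnd1 (-0.88), Ccnd2 (-0.88), Hmgb2 (-0.47), Aurkb (-0.42) and E2f1 (-0.30) lower. With each animal left out in turn, the calls of Ccnd3, Cdk6, Cdkn1a, Cdk4, Pcna and Hmgb2 held. Those of the other four did not: that of Ccnd1 was lost without deficient animal 6 and control 2, at adjusted p values by edgeR of 0.0502 and 0.0648. That of E2f1 was lost without deficient animal 12, control 2 and control 10, with a highest adjusted p of 0.0557 by edgeR. That of Ccnd2 was lost without deficient animals 6 and 12 and controls 2, 10 and 11, with a highest adjusted p of 0.0971 by edgeR. That of Aurkb was lost without each animal except deficient animal 5 and control 10, with a highest adjusted p of 0.0800 by edgeR. The number of members called lower was 3 without deficient animal 6, 3 without deficient animal 12 and 2 without control 2.

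Other genes of the cycle, taken from longer lists that hold none of the members, gave few calls. Among all tested genes edgeR called 6.59% higher and 7.35% lower. The counts of these lists and of the p53 targets below are thus not above the background. Of 60 tested genes of S phase and DNA replication, of 68 listed, edgeR called 1 higher and 2 lower, with a median log2 fold change of -0.03. Dck, the deoxycytidine kinase of nucleotide salvage, was 91.1 ± 25.8 CPM in deficient animals and 148 ± 24.2 CPM in controls (log2 fold change -0.72, SE 0.10, adjusted p = 0.00444 by edgeR), and the call held with each animal left out. The histone chaperone gene Nasp (0.27, SE 0.07, adjusted p = 0.0303 by edgeR) and the fork protection gene Timeless (-0.83, SE 0.23, adjusted p = 0.0405 by edgeR) were also called. The call of Nasp held without deficient animal 13 or control 10 and was lost without any other animal, with a highest adjusted p of 0.0890 by edgeR. That of Timeless held without control 3 and was lost without any other, with a highest adjusted p of 0.100 by edgeR.

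Of 49 tested genes of G2, mitosis and the spindle, of 92 listed, 1 was called higher and 1 lower by edgeR, with a median log2 fold change of 0.14. Iqgap3, a scaffold protein gene expressed in proliferating cells, had 1.19, 0.862, 5.05 and 2.96 CPM in deficient animals 5, 6, 12 and 13, against 0.543, 0.0665, 0.601 and 1.15 CPM in controls (log2 fold change 2.03, SE 0.41, adjusted p = 0.0139 by edgeR). Among the controls only control 11 lay above the lowest deficient animal. As 3 counts are 0.197 to 0.225 CPM, this gene too passed the count filter mainly through the deficient libraries. It shared its highest animal with the mitotic members, and the call was lost without that animal, deficient 12 (adjusted p = 0.0578 by edgeR). Pttg1, which encodes securin, was lower (-0.46, SE 0.12, adjusted p = 0.0358 by edgeR), a call that held without deficient animal 5 or control 3 and was lost without any other animal, with a highest adjusted p of 0.104 by edgeR. The number of genes of this list called higher was 0 without deficient animal 12, 3 without deficient animal 5 or control 2, and 2 without control 3, 10 or 11.

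Of 31 tested G1 regulators, E2F and pocket proteins and CDK inhibitors, of 34 listed, 0 were called higher and 2 lower by edgeR, with a median log2 fold change of -0.05. At an unadjusted p under 0.05 edgeR gave 3 higher and 3 lower, and DESeq2 and limma voom also called 0 higher. Lin37, a subunit of the DREAM complex that represses cell cycle genes in resting cells, had 19.0, 18.0, 14.4 and 14.7 CPM in deficient animals 5, 6, 12 and 13, against 23.7, 23.9, 18.3 and 20.2 CPM in controls (log2 fold change -0.38, SE 0.07, adjusted p = 0.0104 by edgeR), and the call held with each animal left out. Tfdp2, a dimerisation partner of E2F, was lower (-0.61, SE 0.17, adjusted p = 0.0407 by edgeR), a call that held without deficient animal 13 and was lost without any other animal, with a highest adjusted p of 0.107 by edgeR.

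Of 26 tested p53 target genes, of 28 listed, 1 was called higher and 1 lower by edgeR, with a median log2 fold change of 0.00. Plk3, a stress-responsive Polo-like kinase, had 96.0, 131, 331 and 323 CPM in deficient animals 5, 6, 12 and 13, against 84.4, 84.7, 210 and 210 CPM in controls (log2 fold change 0.54, SE 0.09, adjusted p = 0.00831 by edgeR), and the call held with each animal left out. Like Cdkn1a, Plk3 stood higher in the higher-numbered set in both genotypes. Sesn1, a sestrin gene, was lower (-0.46, SE 0.10, adjusted p = 0.0225 by edgeR), a call lost without deficient animals 6, 12 and 13 and controls 2 and 11, with a highest adjusted p of 0.0706 by edgeR. Without deficient animal 5 or control 10, 2 of these targets were called higher and 2 lower, and without control 2, 2 were called higher.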

How the data were processed

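Messenger RNA of sorted liver monocytes was sequenced as single reads, 1 library per mouse, and the authors deposited raw counts per gene for each animal beside 8 columns of normalised counts, which were not used. The submitters' processing notes name GRCm38, STAR 2.7.3a, DESeq2 1.26.0, HTSeq 0.12.4 and cutadapt, without saying what each was used for. Strandedness is not given in the sources used here, so genes on opposite strands that share sequence may share counts. Of 15336 gene identifiers 15324 are in GENCODE M21, which gave the GRCm38 positions and exonic lengths, and 12 are not. The smallest row maximum is 6 counts, and the cre row, 0.000285% of all counts, was kept out of library sizes and tests.

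The counts were tested with edgeR 4.0.16 under R 4.3.3. There filterByExpr (minimum count 10, minimum total 15) kept 12178 genes, trimmed mean of M-values (TMM) factors ran from 0.944 to 1.03, and a quasi-likelihood F-test, two-sided, compared deficient with control animals with the label set as covariate and BH adjustment over all tested genes. CPM use TMM-scaled library sizes, and CPM per kb divides them by exonic length. A count of 0 allows up to 3 counts, a limit that covers counting error only, as PCR copies were not marked by molecular identifiers. Nothing in the labels says more than that each library is 1 mouse, so p-values measure the spread between these animals. Motif letters were searched in RefSeq promoter windows of 250 bases, for genes whose RefSeq and GENCODE starts lie within 100 bases of each other where a sequence is printed.

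The members, the lists and the model with the label set were chosen with earlier results of these data known. The text gives in every animal the called members and Mki67, Top2a, Ccnb1, Ccnd1, Cdkn1a, Pcna and Mcm2, with further members by range or values, and of each other list up to 6 called genes by smallest p. Birc5, Bub1, Aurka, Ccna2, Cdk1, Cdc20, Plk1, Kif11, Tpx2, Ccnd2, Mcm3 and Rrm2 are given in every animal as well, chosen after their values were seen. Alternatives were relative log expression (RLE) and upper-quartile factors, no count filter, at least 5 CPM in 4 libraries, no label set, each set alone, each animal left out, limma voom (limma 3.58.1), DESeq2 1.42.0 and thresholds of 0.01 and 0.1. The fit with no filter and without deficient animal 12 was added after seeing the data. The code was tested on simulated data.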

Additional observations from a re-analysis of the deposited data

Results flagged for a closer look

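Deficient animal 12 stood apart from the other deficient animals in 3 mitotic members, with a gap to its nearest neighbour that is large for the range of 4 samples. Ccna2 had 4.92 CPM in animal 12 and 1.08 to 1.51 CPM in the other deficient animals. Plk1 had 2.91 CPM in animal 12 and 0.396 to 0.719 CPM in the others. Kif11 had 4.29 CPM in animal 12 and 0.862 to 1.38 CPM in the others. In all, 88 groups of 4 animals were looked at, and chance alone marks about 1 in 20 groups.

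Cdkn2c was 1 of the 11 tested members that moved opposite ways in the label sets. In the lower-numbered set it had 3.23 and 3.02 CPM in deficient animals, against 3.39 and 3.33 CPM in controls, and in the higher-numbered set 3.95 and 2.63 CPM in deficient animals, against 2.40 and 2.30 CPM in controls. The difference between the sets was a log2 value of 0.58 (SE 0.36) and was not called by edgeR's interaction test (adjusted p = 0.836). Tpx2 (2.60) and Cdk1 (1.86), which also moved opposite ways, differed more between the sets and were not called either.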

How the results depend on the processing

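No paired analysis was possible because the groups share no animal numbers. The 5 called members kept their direction in every alternative. The model without the label set and the lower-numbered set alone called 0 members and 0 genes of each other list in either direction. Members called higher were 3, against 6 with no count filter, 4 in the higher-numbered set alone and 1 at 5 CPM. They were 5 at an adjusted p under 0.1, 1 at 0.01 and 1 to 4 with each animal left out. Members called lower were 2, against 1 in the higher-numbered set alone, 1 at 0.01, 1 with no filter and without deficient animal 12, and 1 to 3 with each animal left out. Members lower in the higher-numbered set were 6, and 2 to 7 with each animal left out.

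S-phase genes higher (1) became 0 in the higher-numbered set, 0 with no filter and without deficient animal 12, and 0 to 1 leaving out animals. S-phase genes lower (2) became 1 in the higher-numbered set, 1 with limma voom, 1 with no filter and without animal 12, and 1 to 2 leaving out animals. G2 and mitosis genes higher (1) became 3 with no filter, 0 at 5 CPM, 2 in the higher-numbered set, 2 with DESeq2, 0 with no filter and without animal 12, and 0 to 3 leaving out animals. G2 and mitosis genes lower (1) became 0 in the higher-numbered set, 0 with no filter and without animal 12, and 0 to 1 leaving out animals. G1 genes lower (2) became 1 at 5 CPM, 0 in the higher-numbered set, 1 with DESeq2, 1 with no filter and without animal 12, and 1 to 2 leaving out animals. The p53 targets higher (1) became 2 with limma voom, 2 with DESeq2 and 1 to 2 leaving out animals, and those lower (1) became 0 in the higher-numbered set, 3 with DESeq2, 0 with no filter and without animal 12, and 0 to 2 leaving out animals. The cause of these changes was not tested, beyond fewer animals or genes in the alternatives built that way.

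Of 686 alternative values of members 631 kept direction and call, 25 lost and 2 gained the call, and 28, of 15 members not called in the model above, changed sign. In the lower-numbered set the log2 fold changes that did so were -0.17 for Cdk1, -0.01 for Cdkn1a, -0.10 for Cdkn2c, 0.32 for Cdc6, 0.03 for Mcm2, -0.44 for Rrm2 and -0.35 for Tpx2. In the higher-numbered set they were 0.004 for Ccnd2, -0.27 for Ccne2, 0.09 for Cdk2 and 0.02 for Rrm1. With no filter and without deficient animal 12 they were 0.03 for Cdk2 and -0.002 for Cdkn2c. Leaving out animals, values ranged from -0.07 to 0.06 for Ccnd3, -0.08 to 0.30 for Ccne2, -0.10 to 0.07 for Cdk2, -0.20 to 0.01 for Cdkn1b, -0.01 to 0.25 for Cdkn2c, -0.003 to 0.27 for Mcm5, -0.06 to 0.02 for Rrm1 and -0.33 to 0.18 for Tyms. Depth limits the 13 scarcer mitotic members (median 0.699 CPM in controls) and most of all Birc5, Bub1 and Ccnb1, near 3 counts there, which is 0.197 to 0.225 CPM over all libraries.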
